A study of Sus scrofa with 6 samples.

Results

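The genes described here encode the antioxidant and glutathione system, followed in prefrontal cortex of pigs after prenatal valproic acid (VPA). They are 35 genes chosen by name for their function, with earlier results of these data known. They cover the NRF2 axis, glutathione synthesis, glutathione peroxidases and transferases, superoxide dismutases and catalase, peroxiredoxins and thioredoxins. Of the 35 genes, 34 were among the 17201 genes in the count tables, and all 34 had enough reads to be tested. HMOX1, which encodes the inducible heme oxygenase, was not analysed here. The tested animals were 3 VPA pigs (391, 392 and 393), whose labels give VPA at 75 mg/kg, and the series design text places the exposure in early gestation. They were set against 3 control pigs (401, 402 and 408), labelled as receiving nothing. All were 3 months old, and VPA is an anticonvulsant drug that also inhibits histone deacetylases. The sources used here give neither litter nor sex. Bulk tissue was sequenced, so fewer cells of a type and less RNA per cell cannot be told apart.

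Cells detoxify reactive oxygen in steps. Superoxide dismutases turn superoxide into hydrogen peroxide, which catalase, peroxiredoxins and glutathione peroxidases then remove. The last 2 families are recharged by thioredoxin and by glutathione, a small peptide built from cysteine. NRF2, the transcription factor encoded by NFE2L2, is held in check by KEAP1 and drives many of these genes under oxidative stress. In brain, astrocytes are known for a strong NRF2 response and for supplying neurons with the building blocks of glutathione.

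The libraries held 16285517 to 17989032 counted reads, and 1 CPM, the usual depth-scaled count, stood for 16.3 to 18.0 reads. Markers of cortical cell types were present in every library: SLC17A7, of glutamatergic neurons, averaged 355 FPKM in VPA and 385 FPKM in control cortex, and GFAP, of astrocytes, 832 and 793 FPKM. The library VPA 393 stood apart in markers of striatal projection neurons, whose 9 genes summed to 594 CPM there. They summed to 186 and 209 CPM in VPA 391 and 392, against 151 to 175 CPM in controls. EIF1AY, a Y-linked gene, had 0 reads in VPA 392, 2 in control 401 and 450 to 548 in the other libraries.

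None of the 34 genes was called between VPA and control cortex, and most differed very little. In edgeR's quasi-likelihood test with Benjamini-Hochberg adjustment over 14373 genes, 0 of the 34 had an adjusted p under 0.05, where 52 of all genes tested did (0.362%). At an unadjusted p under 0.05 there were 5 of 34 (14.7%), against 16.1% of all genes. Of the 5, 2 were higher in VPA (8.69% of all genes) and 3 lower (7.45%). DESeq2 called 1 of the 34, SLC7A11, where it called 3.14% of all genes, and limma-voom called 0. The log2 fold changes of the 34 had a median of 0.01 (18 positive, 16 negative) beside a median of 0.0018 over all genes, and a median size of 0.09 beside 0.11. In 6 of 34 genes (17.6%) the groups did not overlap, against 21.2% of all genes. These shares lie near the background.

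The precision of the data bounds most of these differences. The 95% interval of the log2 fold change lay within 1.5-fold in either direction for 30 of the 34 genes. It did so for 10831 of all 14373 genes tested. The other 4 of the 34 were the glutathione peroxidase genes GPX3, GPX7 and GPX8 and the extracellular superoxide dismutase gene SOD3, all with low or uneven counts. Read counts behind a single value ran from 19, for GPX7, to 7999, for PRDX2.

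Most of the genes were well expressed. On the FPKM scale, which divides by gene length and so allows levels to be set beside each other, 7 of the 34 averaged at least 100 over the 6 libraries. A further 19 lay between 10 and 100, 7 between 1 and 10, and GPX7 alone under 1. SOD1, the cytosolic superoxide dismutase, was highest with 574 ± 40.2 FPKM in VPA and 602 ± 13.97 FPKM in controls (SD, n = 3 each, as for all values below), rank 44 of the 17201 genes. PRDX2 (446 FPKM over all libraries), GPX4 (233), GSTA4 (203), PRDX5 (127), PRDX3 (111) and TXN (104) followed. The peroxiredoxins gave 31.3% of the summed FPKM of the 34 genes, the dismutases with catalase 27.2%, glutathione transferases 16.1% and glutathione peroxidases 13.03%. The thioredoxin system gave 6.37%, the NRF2 axis 3.74% and glutathione synthesis 2.25%.

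**Figure D1:**
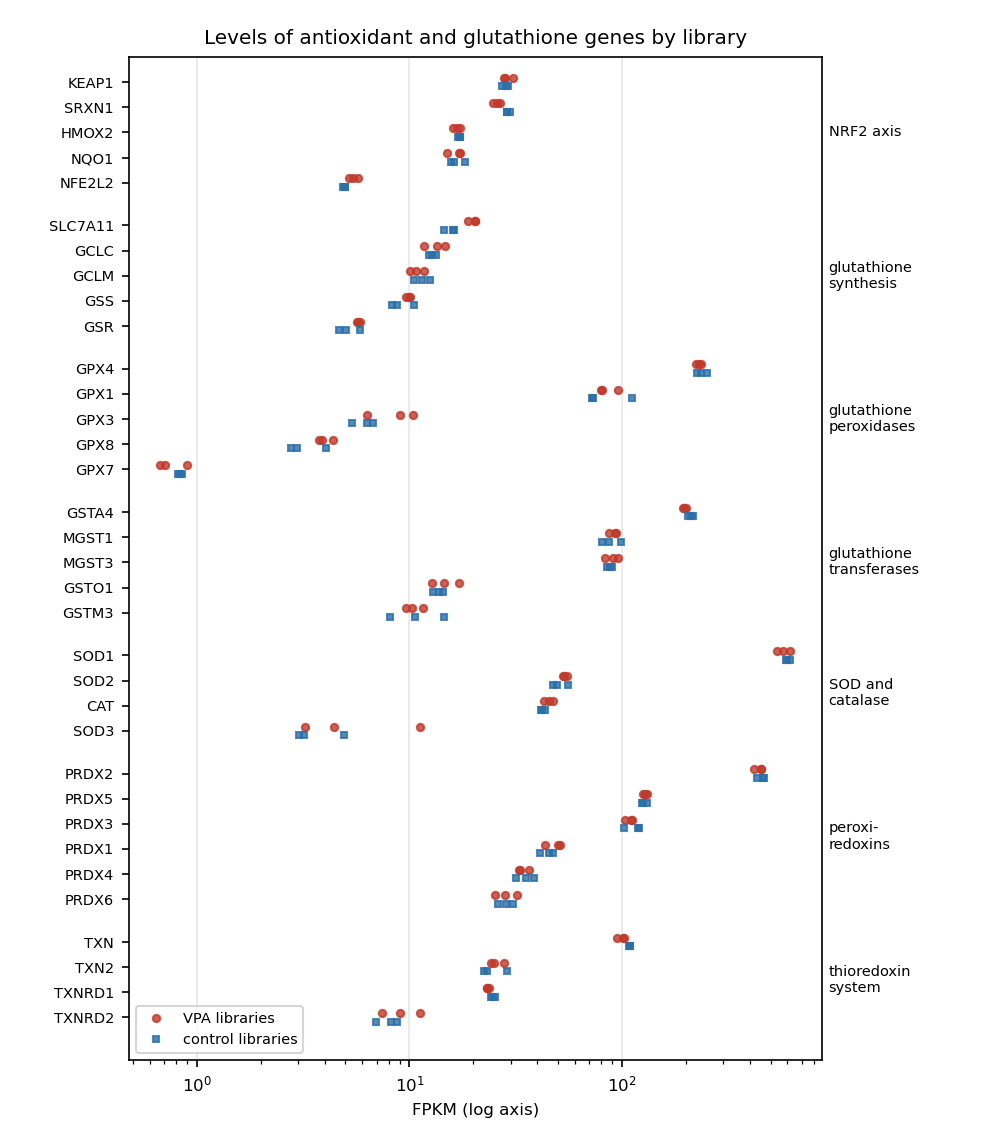
Levels of the 34 genes on a log axis of FPKM, grouped by role, with circles for the 3 VPA libraries and squares for the 3 control libraries. SOD1 and PRDX2 lie farthest right and GPX7 farthest left, and for most genes the circles and squares cover the same range.

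Glutathione synthesis held the gene closest to the threshold. SLC7A11 encodes xCT, the light chain of the antiporter that brings cystine into the cell in exchange for glutamate. It had 190.2, 189 and 176 CPM in VPA 391, 392 and 393, against 135, 149.8 and 152 CPM in controls 401, 402 and 408. Every VPA library lay above every control library, as in 12.1% of all genes tested. The means were 185 ± 8.23 CPM in VPA and 146 ± 9.24 CPM in controls, a log2 fold change of 0.33 ± 0.061 (SE) with a 95% interval of 0.20 to 0.47. Its adjusted p was 0.054 in edgeR, just outside the threshold, and 0.00071 in DESeq2. The difference kept its direction with any 1 library left out, at 0.27 to 0.37 on the log2 scale, with an adjusted p of 0.064 to 0.17. Without VPA 393, the library with the striatal markers, it was 0.37, and with EIF1AY detection as a covariate it was 0.33 (adjusted p = 0.056).

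The partner subunit and the enzymes that follow cystine uptake had smaller differences, with groups that overlapped. SLC3A2, the heavy chain that carries xCT to the membrane, had 119 ± 12.9 CPM in VPA and 115 ± 3.23 CPM in controls (adjusted p = 0.87); it is named here for its pairing with SLC7A11. GCLC, the catalytic subunit of glutamate-cysteine ligase, which performs the rate-limiting step of glutathione synthesis, had 53.3 ± 6.08 CPM in VPA and 51.4 ± 2.15 CPM in controls. GCLM, its modifier subunit, had 55.3 ± 3.997 CPM in VPA and 58.4 ± 4.93 CPM in controls. Their adjusted p were 0.85 and 0.62. Per length, the ratio of GCLC to GCLM was 1.23 ± 0.0553 in VPA and 1.13 ± 0.142 in controls, and it spanned 0.990 to 1.27 over the 6 libraries. GSS, glutathione synthetase, had 18.7 ± 0.407 CPM in VPA and 17.3 ± 2.20 CPM in controls. GSR, the reductase that regenerates glutathione, had 16.2 ± 0.285 CPM in VPA and 14.6 ± 1.73 CPM in controls. In GSS and GSR the 3 VPA libraries lay close together inside the control range or at its top, and neither passed the test (adjusted p = 0.70 and 0.58).

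Summed markers of several cell types also stood at different levels in the VPA and control libraries. The 7 oligodendrocyte precursor markers summed to 822 to 915 CPM in VPA and 668 to 784 CPM in controls, with 6 of 7 positive. Astrocyte markers summed to 8318 to 9638 CPM in VPA and 7659 to 8356 CPM in controls (7 of 8 positive), and oligodendrocyte markers to 16859.9 to 19006 CPM and 12952 to 17425 CPM (10 of 11 positive). The 8 glutamatergic neuron markers summed to 5506 to 5724 CPM in VPA and 5805 to 5958 CPM in controls, with 2 positive and 6 negative. The 8 GABAergic markers summed to 778 to 813 CPM in VPA and 726 to 761 CPM in controls, with 6 positive and 2 negative. The oligodendrocyte and astrocyte ranges overlapped between the groups. No measured marker of these 5 lists was at 0 in all libraries or called. The 9 striatal projection neuron markers, all positive, summed to 186 to 594 CPM in VPA and 151 to 175 CPM in controls. Microglia, endothelial, mural and fibroblast, choroid plexus and ependyma, and red blood cell sums overlapped between the groups. The part of any of these markers in the SLC7A11 difference was not tested.

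In the NRF2 axis, the transcription factor gene and SRXN1, 1 of many NRF2 targets among the 34, lay on opposite sides. Signs were mixed over the 34 (18 positive, 16 negative), with log2 fold changes of 0.33 for SLC7A11 and -0.03 for NQO1. NFE2L2 had 58.1, 52.5 and 55.0 CPM in VPA 391, 392 and 393, against 49.0, 50.4 and 50.4 CPM in controls 401, 402 and 408. All VPA values were above all control values, as in 12.1% of all genes, by a small margin (log2 fold change 0.13 ± 0.067, 95% interval -0.02 to 0.28, adjusted p = 0.37). SRXN1 encodes sulfiredoxin, which repairs over-oxidised peroxiredoxins and is a classical NRF2 target. It had 62.7, 68.3 and 65.7 CPM in VPA, against 73.3, 73.5 and 75.5 CPM in controls. Every VPA library was below every control library, as in 9.07% of all genes (log2 fold change -0.19 ± 0.058, adjusted p = 0.15). The next lowest adjusted p after SLC7A11 among the 34 was that of SRXN1, and it stayed above the threshold in all 12 alternatives (0.15 to 0.32).

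The remaining genes of the axis showed overlapping groups. KEAP1, the NRF2 inhibitor, had 92.1 ± 5.08 CPM in VPA and 90.0 ± 3.03 CPM in controls. HMOX2, the constitutive heme oxygenase, prominent in brain, had 116 ± 4.74 CPM in VPA and 119 ± 1.77 CPM in controls. NQO1, a quinone reductase often used as a readout of NRF2, had 28.1 ± 2.10 CPM in VPA and 28.3 ± 2.34 CPM in controls. Their log2 fold changes were 0.02, -0.06 and -0.03, with adjusted p of 0.90, 0.60 and 0.92. For NQO1 the 95% interval ran from -0.22 to 0.17.

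Both thioredoxin genes of the cytosol had slightly lower values in VPA cortex, while those of mitochondria had overlapping groups. TXN, the cytosolic thioredoxin that reduces peroxiredoxins, had 71.7, 76.1 and 77.1 CPM in VPA 391, 392 and 393, against 82.1, 81.2 and 82.2 CPM in controls 401, 402 and 408. TXNRD1, the selenoprotein reductase that recharges TXN, had 80.1, 80.5 and 81.5 CPM in VPA, against 83.7, 85.2 and 87.2 CPM in controls. In both genes the groups were separate with VPA lower, as in 9.07% of all genes tested. The coefficient of variation of TXN was 0.666% over the 3 controls and 3.84% over the 3 VPA libraries. The log2 fold changes were small, -0.14 ± 0.053 for TXN and -0.09 ± 0.051 for TXNRD1, and neither passed (adjusted p = 0.23 and 0.40). TXN2, the mitochondrial thioredoxin, had 56.1 ± 4.18 CPM in VPA and 54.2 ± 7.61 CPM in controls. TXNRD2, its reductase, had 16.9, 20.9 and 13.8 CPM in VPA and 16.3, 15.2 and 12.97 CPM in controls, with VPA 392 highest and the groups overlapping. The difference between the cytosolic and mitochondrial pairs was not tested.

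**Figure D2:**
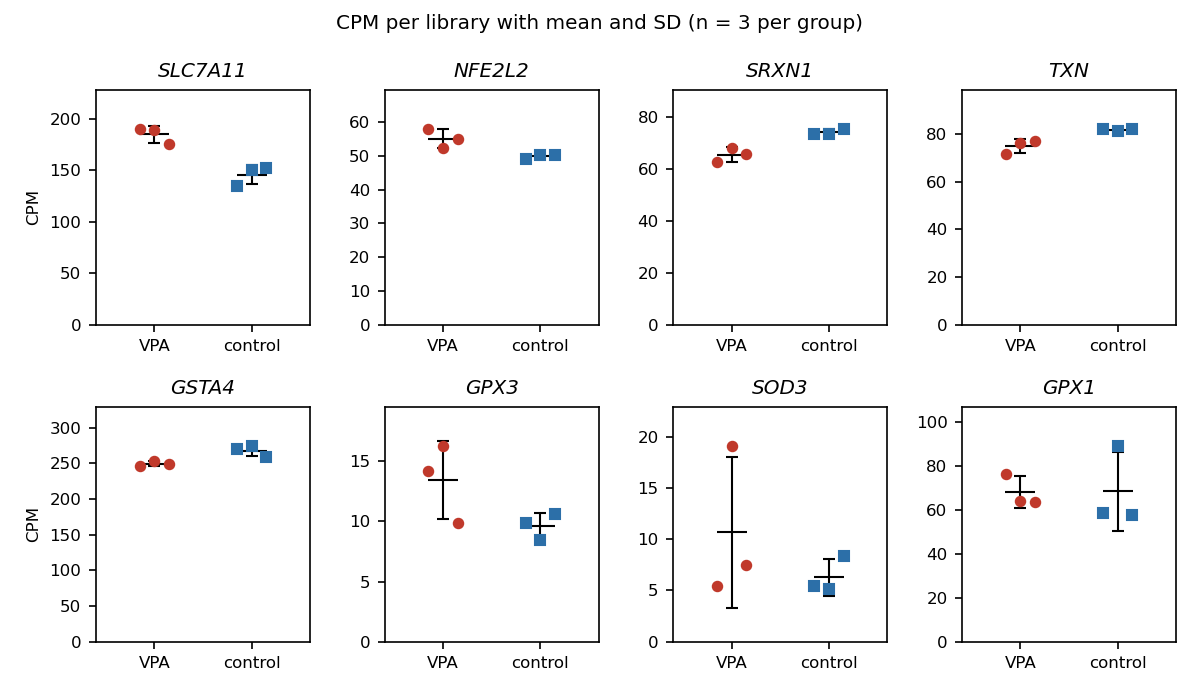
CPM of 8 genes in each library, with VPA left of control, a bar for the mean and whiskers for 1 SD (n = 3 each); each panel starts at 0. SLC7A11 and NFE2L2 have all VPA points above all control points, SRXN1, TXN and GSTA4 have them below, and GPX3, SOD3 and GPX1 each have libraries that stand away from their group.

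Peroxiredoxins, the abundant thiol peroxidases, had overlapping groups throughout. The log2 fold changes of the 6 ran from -0.09 for PRDX3 to 0.10 for PRDX1. PRDX2, the cytosolic form prominent in neurons, had 420.2 ± 18.5 CPM in VPA and 433 ± 16.9 CPM in controls. PRDX1, its cytosolic relative, had 85.9 ± 7.29 CPM in VPA and 79.3 ± 5.59 CPM in controls. Per length PRDX2 stood at 9.17 ± 1.04 times PRDX1 in VPA and at 10.2 ± 0.388 times in controls. PRDX3, of mitochondria, had 169.9 ± 6.83 CPM in VPA and 179 ± 16.4 CPM in controls. PRDX5, found in mitochondria, peroxisomes and cytosol, varied least of all 34 genes, with a coefficient of variation of 2.48% over the 6 libraries and a 95% interval of -0.11 to 0.12. PRDX4, of the endoplasmic reticulum, had 38.9 ± 2.37 CPM in VPA and 40.0 ± 3.71 CPM in controls. PRDX6, which uses glutathione and is known from astrocytes, had 47.4 ± 5.88 CPM in VPA and 47.1 ± 3.99 CPM in controls. Adjusted p ran from 0.55 to 0.99 over the family.

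Superoxide dismutases and catalase also had overlapping groups, and 1 VPA animal stood out in the extracellular enzyme. SOD1 had 340.4, 391 and 362 CPM in VPA 391, 392 and 393, against 378, 393 and 376 CPM in controls 401, 402 and 408 (log2 fold change -0.08 ± 0.056, adjusted p = 0.52). SOD2, the mitochondrial dismutase, had 90.0 ± 2.27 CPM in VPA and 85.0 ± 7.06 CPM in controls (adjusted p = 0.65). CAT, the catalase of peroxisomes, had 116, 105 and 112 CPM in VPA, against 102, 106 and 103 CPM in controls (adjusted p = 0.48). In each of the 3 the groups overlapped. SOD3, the secreted dismutase found around blood vessels, had 5.44, 19.1 and 7.51 CPM in VPA, against 5.39, 5.10 and 8.36 CPM in controls. VPA 392 alone was high, and the log2 fold change of 0.75 ± 0.40 (adjusted p = 0.39) became 0.03 without it. The same library had the highest sum of mural and fibroblast markers, 464 CPM against 316 to 401 CPM in the other 5, and of endothelial markers, 554 CPM against 464 to 492 CPM. VPA 392 also had the highest sums of astrocyte (9638 CPM), oligodendrocyte precursor (915 CPM) and oligodendrocyte markers (19006 CPM, beside 19004 CPM in VPA 391). It was not the highest in the microglia, neuron, choroid plexus or red blood cell lists. No measured marker of the lists named here was at 0 in all libraries, and their part in the SOD3 value was not tested.

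Glutathione peroxidases split into 2 abundant, intracellular enzymes and 3 scarcer ones. GPX4, the selenoenzyme that reduces lipid peroxides in membranes and guards against ferroptosis, had 204 ± 5.63 CPM in VPA and 211 ± 11.6 CPM in controls (log2 fold change -0.06 ± 0.052, 95% interval -0.17 to 0.06). GPX1, the general cytosolic peroxidase, had 76.5, 64.0 and 63.5 CPM in VPA 391, 392 and 393, against 58.5, 89.2 and 57.6 CPM in controls 401, 402 and 408. Control 402 was far above the other controls, so the log2 fold change of -0.02 became 0.21 without it (adjusted p = 0.36). GPX1 is also a red blood cell enzyme. The 6 measured of 8 listed red blood cell markers summed to 212 CPM in control 402 and to 28.0 and 50.5 CPM in controls 401 and 408. In VPA 391, 392 and 393 they summed to 130.2, 209.8 and 201 CPM, and of these 3 libraries VPA 391 had the highest GPX1. None of the 6 was at 0 in all libraries, and their part in the GPX1 values was not tested.

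Among the scarcer peroxidases, GPX3 had the widest difference. GPX3, the secreted form, had 14.2, 16.3 and 9.90 CPM in VPA 391, 392 and 393, against 9.89, 8.42 and 10.6 CPM in controls 401, 402 and 408. VPA 391 and 392 were high, while VPA 393 fell inside the control range. Its log2 fold change of 0.47 ± 0.18 did not pass (adjusted p = 0.23), and with 1 library left out it ran from 0.31, without VPA 392, to 0.65, without VPA 393. GPX8, a peroxidase of the endoplasmic reticulum, had 5.05 ± 0.404 CPM in VPA and 4.12 ± 0.868 CPM in controls. GPX7, its relative in the same compartment, had 1.31 ± 0.210 CPM in VPA and 1.45 ± 0.0308 CPM in controls. Their 95% intervals, -0.16 to 0.71 and -0.81 to 0.50, do not exclude differences of over 1.5-fold at this depth.

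Glutathione transferases attach glutathione to electrophiles, and the one with the highest level per length here had slightly lower values in VPA cortex. GSTA4, which clears the lipid peroxidation product 4-hydroxynonenal, had 246, 254 and 249.9 CPM in VPA 391, 392 and 393, against 269.8, 275 and 259 CPM in controls 401, 402 and 408. All VPA values lay below all control values, as in 9.07% of all genes, with a log2 fold change of -0.11 ± 0.045 (95% interval -0.21 to -0.01, adjusted p = 0.25). The microsomal transferases MGST1 and MGST3 stood at near equal levels per length, with a ratio of MGST3 to MGST1 of 0.987 ± 0.0376 in VPA and 0.994 ± 0.119 in controls. MGST1 had 89.1 ± 3.56 CPM in VPA and 86.8 ± 9.19 CPM in controls, and MGST3 had 106 ± 7.06 and 103 ± 2.36 CPM. GSTO1, an omega-class enzyme, had 12.99 ± 1.92 CPM in VPA and 12.001 ± 0.681 CPM in controls. GSTM3, a mu-class enzyme, had 8.31, 7.80 and 9.29 CPM in VPA, against 6.56, 8.60 and 11.8 CPM in controls, where the controls alone covered the whole range. These 4 had adjusted p of 0.75 to 0.91. As mu-class and alpha-class transferases come in families of close relatives, reads shared between relatives could not be separated.

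**Figure D3:**
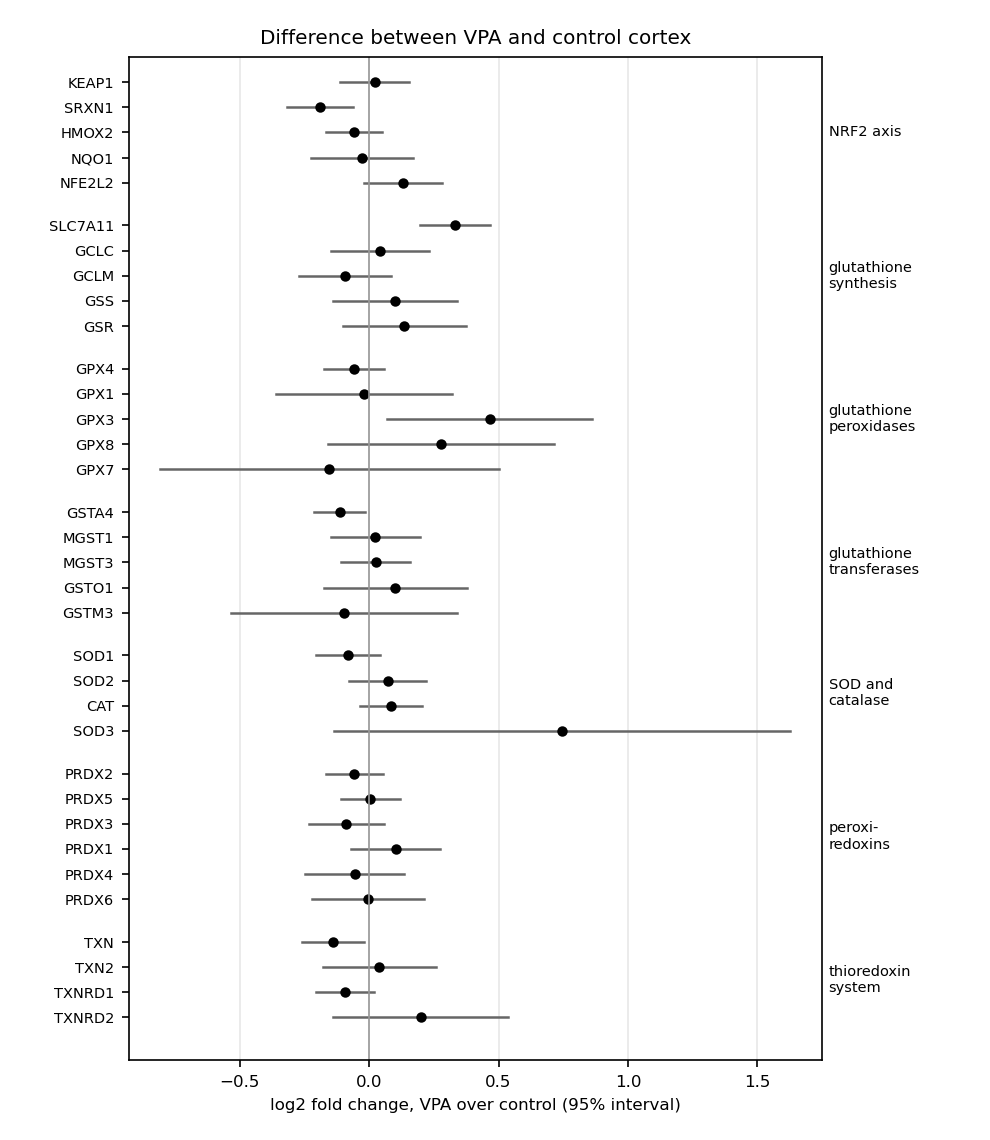
Log2 fold change of VPA over control for each of the 34 genes, as a point with its 95% interval from the edgeR fit. The interval excludes 0 for SLC7A11, GPX3, SRXN1, TXN and GSTA4, none of which passed after adjustment, and it is widest for SOD3 and GPX7.

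The 34 genes varied little between animals. Their median coefficient of variation over the 6 libraries was 7.24%, beside 9.29% for all genes tested, and it was under 10% in 24 of the 34. Expression level was not matched in this comparison, and 10 of the 34 lay in the top 5% of genes by FPKM. SOD3 varied most, at 63.2%, followed by GPX3 at 26.1%, GSTM3 at 20.1% and GPX1 at 18.0%. No library was high or low throughout: relative to each gene's mean, the median deviation of the 34 ran from -0.03 in control 408 to 0.03 in control 402 on the log2 scale. VPA 391 was the lowest library in 10 of the 34 genes, where it was in 16.1% of all genes tested. Control 401 was the lowest in 8 of the 34 (14.4% of all genes tested) and VPA 393 in 1 (11.7%). Control 402 was the highest in 8 of the 34, where it was in 15.5% of all genes tested. Summed over the 34, levels were 3057 to 3175 CPM in VPA and 3037 to 3204 CPM in controls, so the range of the VPA libraries lay inside that of the controls.

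**Figure D4:**
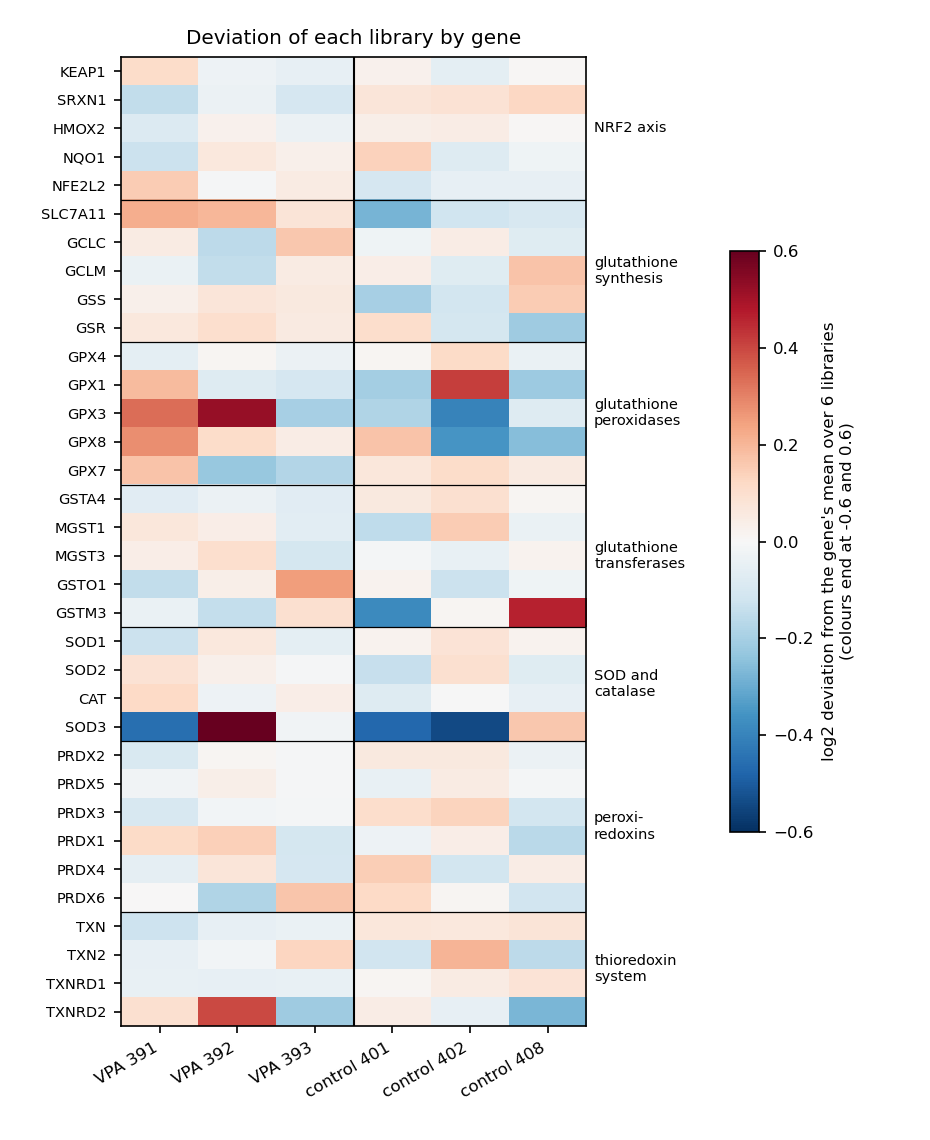
Deviation of each library (columns, VPA left of the line and control right of it) from the gene's mean over the 6 libraries (rows, by role), in log2 units with colours ending at -0.6 and 0.6. The darkest red cells are SOD3 and GPX3 in VPA 392, GSTM3 in control 408 and GPX1 in control 402, and no column is of 1 colour throughout.

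Of 109 other genes of the same pathways, 105 were listed and 96 were tested, and none was called, where 0.362% of all genes were. In edgeR 9 of the 96 (9.38%) had an unadjusted p under 0.05, against 16.1% of all genes. In 15 (15.6%) the groups did not overlap, against 21.2% of all genes. The median log2 fold change was -0.01 (47 positive, 49 negative). DESeq2 called 1 of them, MSRA, where it called 3.14% of all genes, and limma-voom 0, where it called 0.209%. By sub-list, the median was 0.08 for 11 genes of NADPH supply (6 of 11 positive), -0.05 for 13 partners and regulators of NRF2 (4 of 13), and -0.05 for 13 genes of cysteine and glutathione supply and turnover (5 of 13). It was -0.03 for 11 other glutathione enzymes (4 of 11), 0.03 for 17 other thioredoxin and repair enzymes (11 of 17) and -0.03 for 13 heme, iron and metal-binding genes (4 of 13). Of these 7 sub-lists the 18 other NRF2 targets had the largest median, 0.11 with 13 of 18 positive. In edgeR 4 of them (22.2%) had an unadjusted p under 0.05, against 16.1% of all genes in either direction. All 4 were higher in VPA, where 8.69% of all genes were. As this sub-list was picked out of the 7 by its median, nothing is read from its shares. In 3 of the 18 the groups were separate with VPA higher and in 1 with VPA lower, where 12.1% and 9.07% of all genes were.

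The 6 of these genes with the lowest p touched several steps of the system. CHAC2, a cytosolic enzyme that breaks down glutathione, had 11.1, 12.6 and 14.3 CPM in VPA 391, 392 and 393, against 17.8, 16.0 and 18.5 CPM in controls 401, 402 and 408 (log2 fold change -0.47 ± 0.12, adjusted p = 0.097). MSRA, which repairs oxidised methionine, had 74.0, 69.5 and 64.9 CPM in VPA, against 83.8, 93.8 and 78.5 CPM in controls (-0.31 ± 0.079, adjusted p = 0.10). GSTZ1, a transferase of tyrosine breakdown, had 18.3 ± 2.13 CPM in VPA and 13.3 ± 0.977 CPM in controls (0.45 ± 0.11, adjusted p = 0.10). CUL3, the ubiquitin ligase scaffold through which KEAP1 has NRF2 degraded, had 106 ± 6.39 CPM in VPA and 122 ± 6.03 CPM in controls (-0.22 ± 0.059, adjusted p = 0.12). ABCC3, an exporter of conjugates, had 5.11 ± 0.506 CPM in VPA and 3.14 ± 0.507 CPM in controls (0.69 ± 0.20, adjusted p = 0.13). EPHX2, the soluble epoxide hydrolase, had 95.7 ± 2.31 CPM in VPA and 82.9 ± 6.24 CPM in controls (0.19 ± 0.063, adjusted p = 0.17). None passed the adjustment. In all 6 the groups were separate, as in 21.2% of all genes, and nothing is read from that count because the 6 were chosen by their p.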

How the data were processed

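RNA of prefrontal cortex from 6 pigs was extracted with TRIzol and made into libraries with a VAHTS Universal V6 kit, per the labels' protocols. For each library the authors deposited a table of raw counts and a table of FPKM, per the file headers. The sources used here name no aligner, counting tool, strandedness, build or annotation. The FPKM equal the count scaled by the file total and 1 length per gene (relative tolerance 0.001). CPM were computed from file totals, and groups came from the sample titles, which name separate animals, without saying whether they shared a litter. Of 17201 names, 17177 matched RefSeq symbols of Sscrofa11.1 and 24 had become dates.

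Counts were tested in R 4.3.3 with edgeR 4.0.16 on all genes: the default filterByExpr left out 2828 and kept 14373, TMM gave factors of 0.993 to 1.01, and group was the only term of glmQLFit and glmQLFTest. A gene is termed called at a Benjamini-Hochberg adjusted p under 0.05. Standard errors come from the F statistic, and 95% intervals from these with the fit's total degrees of freedom. The functions were tested on simulated data. Alternatives were RLE scaling, library size only, no filter, DESeq2 1.42.0 (alpha 0.05), limma-voom 3.58.1, EIF1AY detection (at least 3 reads) as a covariate, and each library left out. CPM with TMM factors differed from CPM from file totals by at most 1.26%.

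The members and lists were chosen with earlier results of these data known. All members are described; of the other pathway genes the 6 with the lowest p are named.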

Additional observations from a re-analysis of the deposited data

How the results depend on the processing

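The count of called genes among the 34 was 0 in the main edgeR fit and 1 (SLC7A11) with DESeq2, with library size only and with no filter on low counts. It was 0 with each library left out. In DESeq2 1 of the other pathway genes, MSRA, was called, and 0 with each library left out. Over all genes 52 were called (0.362%), against 435 with DESeq2 (3.14%) and 30 with limma-voom (0.209%). The count was 58 with library size only (0.404%) and 141 with no filter (0.820%). With 1 library left out the count ran from 0 (without VPA 391 or VPA 392) to 66 (without control 401), with 1 without VPA 393, 5 without control 402 and 2 without control 408. For SLC7A11 the log2 fold change was 0.33 in DESeq2 (adjusted p = 0.00071) and in the unfiltered fit (adjusted p = 0.033), and 0.34 with library size only (adjusted p = 0.043).

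No gene among the 34 changed sign while called. Signs turned for 11 genes with small differences: GPX1 became 0.0075 with limma-voom and PRDX6 0.0086 with library size only. With 1 library left out, the range was -0.033 to 0.12 for GCLC, -0.13 to 0.21 for GPX1, -0.29 to 0.15 for GSTM3, -0.011 to 0.19 for GSTO1, -0.038 to 0.052 for KEAP1, -0.050 to 0.10 for MGST1, -0.020 to 0.081 for MGST3, -0.076 to 0.033 for NQO1, -0.023 to 0.024 for PRDX5, -0.094 to 0.078 for PRDX6 and -0.028 to 0.15 for TXN2. The cause was not tested. The other 23 genes kept their direction in all 12 alternatives. Low counts limit GPX7 most, with 19 reads in its lowest library. No paired analysis was possible because the animal numbers are not shared between the groups.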
